A study of Mus musculus with 25 samples.

Results

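The genes described are 10 liver genes of blood clotting: the clotting factors F2 (prothrombin), F5, F7, F9, F10, F11 and F12, the fibrinogen chain Fgb, and the anticoagulants Serpinc1 (antithrombin) and Proc (protein C). They were chosen by symbol, with earlier results of these data known. Each was read from the probe set annotated to it alone that had the highest mean log2 intensity over all stages. All 10 were measured, by 13 probe sets in all, among 18193 genes with a probe set of their own. Total RNA of whole liver from C57/B6 mice, for which the labels name no treatment, was hybridised to Affymetrix arrays. There were 8 fetal stages, embryonic day 11.5 (E11.5) and each day on to E18.5, and 6 later stages: the day of birth (Day0), days 3, 7, 14 and 21 (Day3 to Day21), and mature mice at 18 weeks, called adult below. Every stage was a single pool of livers, 12 of them at E11.5, 9 at both E12.5 and E13.5, 6 at both E14.5 and E15.5, and 3 at any stage after that. A second array of the same pool, a technical repeat, was made for 11 stages, while E18.5, Day7 and Day14 had 1 array, for a total of 25. A difference between stages is therefore one between pools, and the spread between repeats holds no variation between animals or litters.

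Clotting proteins are mostly made by hepatocytes and secreted into the blood as inactive precursors. F12 starts the contact route and activates F11, which activates F9, while F7 starts the other route when it meets tissue factor outside the vessel. Both routes lead to F10, which with its helper F5 turns prothrombin into thrombin, and thrombin turns fibrinogen into the fibrin of the clot. Antithrombin blocks thrombin and active F10, and protein C, once activated, destroys active F5.

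The sequences just before the starts of these genes are shown because sites for liver transcription factors are known from such regions. Windows from RefSeq's promoter table (build GRCm38.p6) were used for 9 of the 10 genes, and the 250 bases before each start were searched on both strands. The window of Proc was not among those searched, so the counts out of 9 below say nothing about that gene. CAAAGGTC, a sequence bound by HNF4 and other nuclear receptors, was in 1.01% of 32851 windows of this length and in 3 of the 9, those of F7, F9 and F12. TTGCNNAA, a C/EBP sequence, was in 9.56% of all windows and in those of F9, F11 and Fgb. TGTTTAC, a FOXA sequence, was in 3.17% of all windows and in that of F11. GTTAAT, which is a part of the HNF1 site, was in 6.43% of all windows and in that of Fgb. CAAAGTCC, another sequence bound by HNF4, was in 1.20% of all windows and in none of the 9. Each is printed 5′ to 3′ on the strand of its gene; capitals mark the matches, on either strand, and a match shows only that these letters are there.
F7 (chr8:13025784-13026033, plus strand): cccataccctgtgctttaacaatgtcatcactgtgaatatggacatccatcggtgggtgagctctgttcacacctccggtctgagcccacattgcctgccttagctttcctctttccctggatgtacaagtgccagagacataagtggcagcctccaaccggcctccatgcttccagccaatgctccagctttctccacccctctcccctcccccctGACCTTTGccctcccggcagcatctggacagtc
F9 (chrX:59999214-59999463, plus strand): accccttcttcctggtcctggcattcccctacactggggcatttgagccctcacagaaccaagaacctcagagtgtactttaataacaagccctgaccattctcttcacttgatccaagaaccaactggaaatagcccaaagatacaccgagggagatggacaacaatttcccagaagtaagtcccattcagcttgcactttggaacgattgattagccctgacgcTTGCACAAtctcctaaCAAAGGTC
F12 (chr13:55426805-55427054, minus strand): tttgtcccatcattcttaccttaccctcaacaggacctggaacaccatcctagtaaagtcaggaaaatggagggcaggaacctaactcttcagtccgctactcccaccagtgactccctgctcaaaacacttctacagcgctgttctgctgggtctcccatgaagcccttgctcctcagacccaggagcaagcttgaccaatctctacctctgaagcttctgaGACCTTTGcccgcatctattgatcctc
F11 (chr8:45262032-45262281, minus strand): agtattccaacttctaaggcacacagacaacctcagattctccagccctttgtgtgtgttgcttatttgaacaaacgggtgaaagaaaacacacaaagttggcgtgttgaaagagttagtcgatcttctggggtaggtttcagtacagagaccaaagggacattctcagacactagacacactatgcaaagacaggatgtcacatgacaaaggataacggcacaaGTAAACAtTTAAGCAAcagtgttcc
Fgb (chr3:83049864-83050113, minus strand): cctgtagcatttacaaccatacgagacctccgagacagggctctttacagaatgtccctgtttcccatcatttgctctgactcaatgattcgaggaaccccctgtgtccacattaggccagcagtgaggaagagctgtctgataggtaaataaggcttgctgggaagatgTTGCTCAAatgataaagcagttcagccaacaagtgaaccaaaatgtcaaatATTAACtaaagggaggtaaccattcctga
F10 (chr8:13037058-13037307, plus strand): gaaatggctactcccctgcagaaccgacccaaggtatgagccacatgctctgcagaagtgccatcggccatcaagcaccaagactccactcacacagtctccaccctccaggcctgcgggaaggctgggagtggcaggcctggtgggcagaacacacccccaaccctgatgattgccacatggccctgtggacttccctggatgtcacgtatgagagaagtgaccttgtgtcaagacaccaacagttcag
The match of F9 began 8 bases before its start, that of F12 27 bases and that of F7 33 bases, and those of F12 and F7 were on the opposite strand. In F9 the C/EBP match lay 24 bases before the start, so that both of its matches fell within the stretch closest to the gene. In F11 the FOXA and C/EBP matches were 25 and 17 bases before the start, and in Fgb the C/EBP and HNF1 matches were 80 and 29 bases before it. The window of F10 is given because F10 lies directly beside F7 on chromosome 8, and it held none of these sequences, nor did those of F2, F5 and Serpinc1. None of the 5 sequences searched was in all 9 windows.

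Array medians were 5.41 to 5.53 on the log2 scale, and the 2 arrays of a pool had r = 0.986 to 0.996 over genes. Of the hepatocyte markers (Alb, Ttr, Apoa1 and others) 7 of 8 were measured, and all 7 were above the array median at every stage. Their mean log2 intensity went from 11.72 at E11.5 to 13.70 at Day7, and their summed intensity was 31125 to 91585 in fetal and 75504 to 103161 in postnatal pools. Erythroid markers summed to 8336 to 19510 in fetal and 755 to 10127 in postnatal pools, and macrophage markers to 1328 to 8282 and 3071 to 12203. Megakaryocyte and platelet markers summed to 2796 to 4423 and 564 to 4381, endothelial markers to 791 to 1195 and 712 to 2496, stellate markers to 1463 to 2466 and 1388 to 3743, and bile duct markers to 571 to 885 and 400 to 764. The 7 skeletal muscle markers averaged 7.17 at E18.5 and 5.25 to 5.69 in the other pools, so the E18.5 pool stood apart, and it also had only 1 array. The part of these other cells in the results below was not tested.

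Most of the clotting genes rose between E14.5 and E15.5, and before that only F5 passed the test against E11.5. A gene is called here where limma, fitted over all genes, gave an adjusted p (Benjamini-Hochberg) under 0.05 for a change of 1 log2 unit, which is 2-fold, or more. Against E11.5, 0 of the 10 were called higher at E12.5, with 1 higher and 2 lower at an unadjusted p under 0.05; 1.71% of all genes were called higher there. At E13.5 F5 was called, 1 of 10 against 1.14% of all genes. At E14.5 again 0 of 10 were called, with 1 higher and 1 lower at an unadjusted p under 0.05, against 1.51% of all genes. At E15.5 the count was 8 of 10 against 3.00% of all genes, and at E16.5 it was 8 of 10 against 3.40%. At E17.5 9 of 10 were called against 4.29%, and at E18.5 all 10 against 6.56%. The 2 genes that came last were F12, called from E17.5 on, and F7, called at E18.5 only among the fetal stages. Over all genes 1.27% had E15.5 as the first stage from which they stayed called, 0.967% had E17.5 and 3.13% had E18.5. The late place of F12 and F7 depended on the scaling. With the arrays set to equal levels of 14 housekeeping genes, all 10 were called at E15.5, against 23.3% of all genes. After quantile normalisation 9 of 10 were called at E16.5, against 5.63% of all genes. These errors are technical, and in whole-liver RNA a larger share of hepatocytes and more of a transcript in each hepatocyte cannot be told apart.

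**Figure D1:**
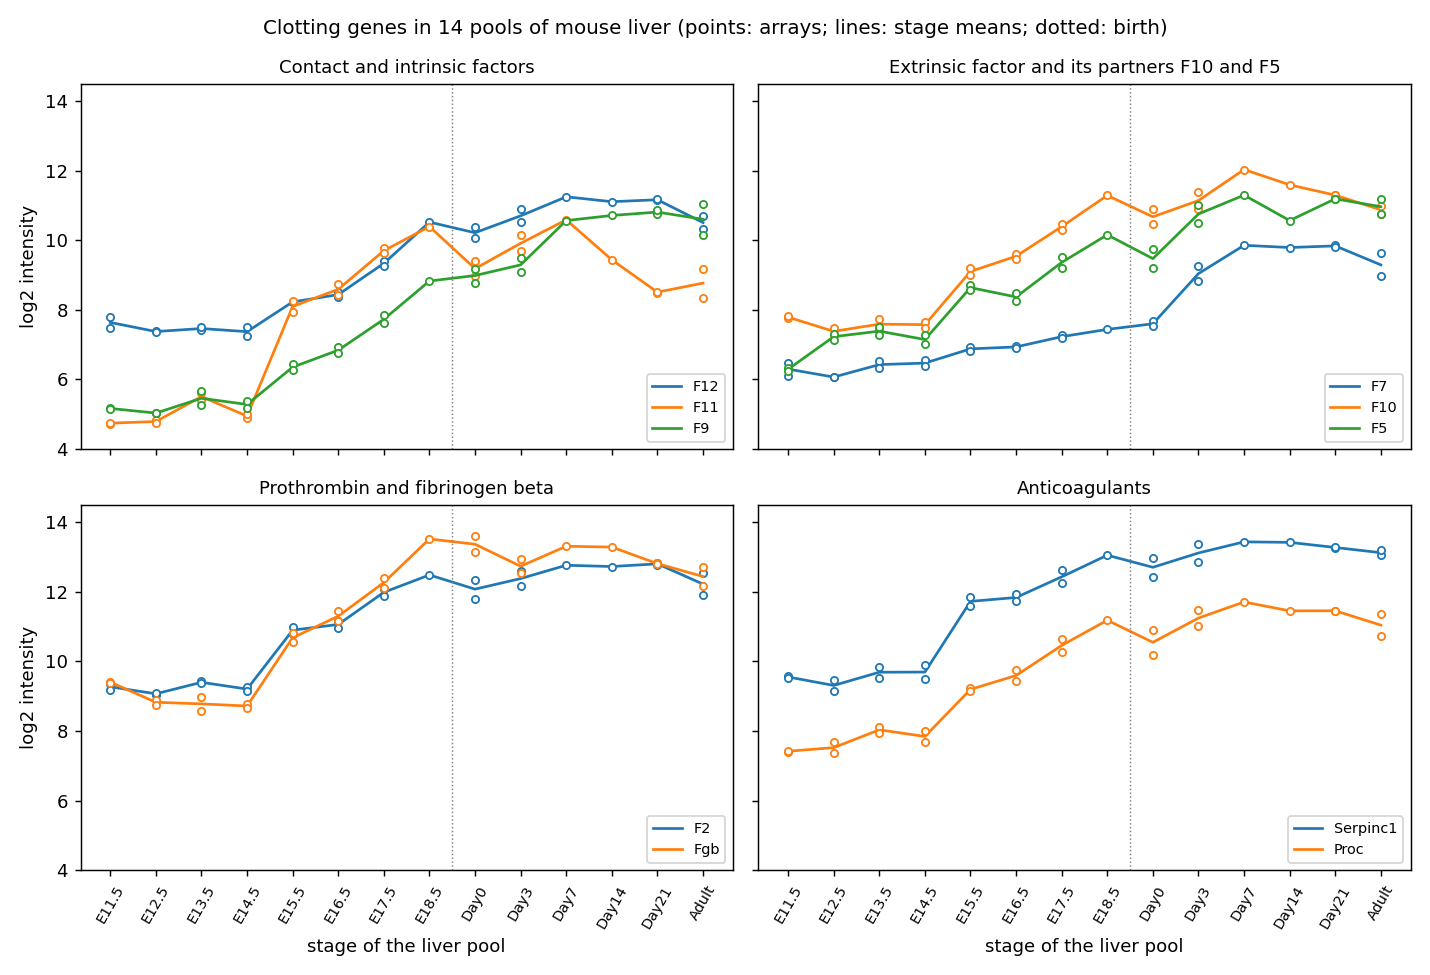
Log2 intensity (vertical axis) of the 10 clotting genes at the 14 stages (horizontal axis), in 4 panels by role; each point is 1 array and each line joins the stage means. Nearly all lines turn up between E14.5 and E15.5, F11 most steeply, while F7 is at 7.44 or lower in every fetal pool and climbs between Day0 and Day3.

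The step from E14.5 to E15.5 was singled out after the values were seen. All 10 genes were higher at E15.5 than at E14.5, and 8 of 10 were called, against 1.29% of all genes. The median difference of the 10 was 1.51 log2 units, and that of all genes was 0.02. The largest measured change was that of F11, 3.15 ± 0.23 (SE), or 8.87-fold (adjusted p = 3.42e-07). Its repeat arrays read 4.89 and 5.01 at E14.5 and 8.27 and 7.93 at E15.5, so the stages were far apart compared with the repeats. The E14.5 values are below the array median; no detection calls were used here, so if F11 was not above background then, this and every other change of F11 from the early stages is a lower bound. The same holds for F9, which was below the array median in 4 of 8 fetal pools, as F11 was in 3; the other 8 genes were above it in every pool. Serpinc1 rose by 2.03 ± 0.21, Fgb by 1.96 ± 0.20 and F2 by 1.69 ± 0.20. F10 rose by 1.53 ± 0.17, F5 by 1.49 ± 0.20, Proc by 1.35 ± 0.24 and F9 by 1.07 ± 0.23. F12 was 0.85 ± 0.15 higher (adjusted p = 0.00188), short of 1 log2 unit, and F7 was 0.41 ± 0.18 higher (adjusted p = 0.192). F9 came close to the threshold, and its call was lost without the first repeat of E14.5 (0.96) or of E15.5 (0.98). Over the same step the mean of the hepatocyte markers went from 11.94 to 13.02, with 5 of 7 called higher, and their summed intensity from 34556 to 62989. Of the macrophage markers 3 of 8 were called higher (mean 6.81 to 7.74). Erythroid markers were at 11.08 and 11.20, with 0 of 7 called and 2 higher at an unadjusted p under 0.05.

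**Figure D2:**
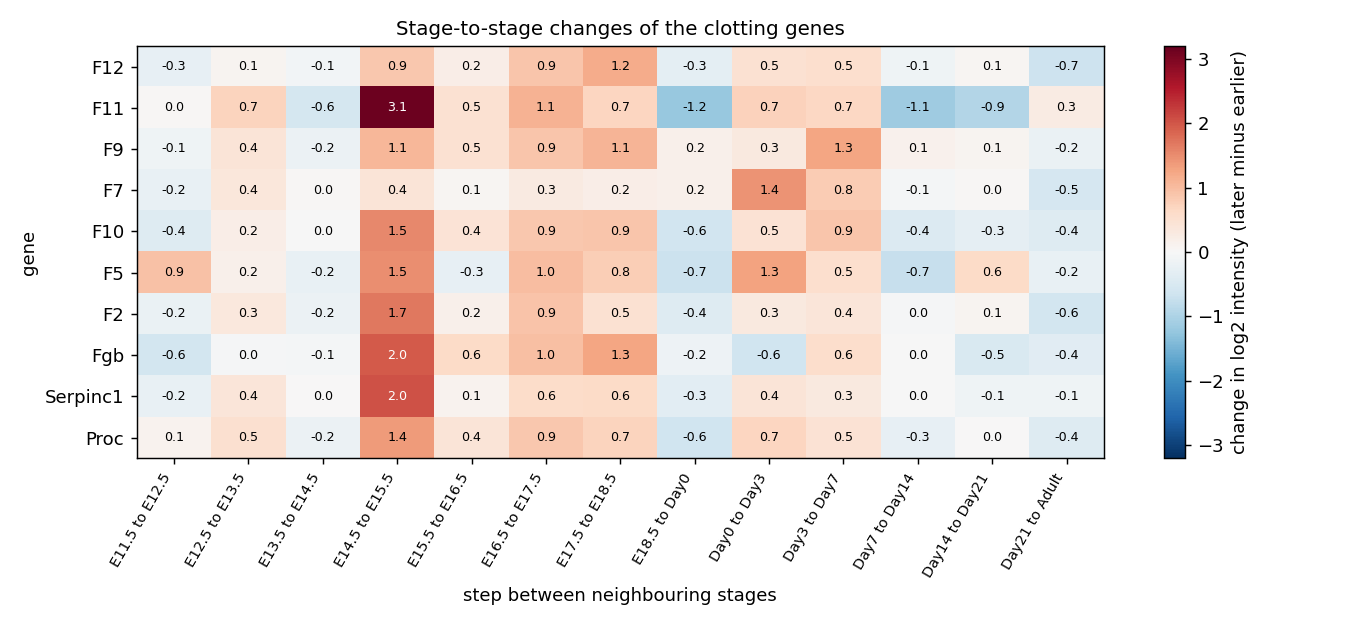
Change in log2 intensity between neighbouring stages (later minus earlier) for each of the 10 genes in rows and the 13 steps in columns, with red for higher and blue for lower at the later stage. The column E14.5 to E15.5 is positive in all 10 rows, with F11 at 3.15, and the step across birth is negative in 8 of 10 rows.

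Fetal development as a whole brought higher levels of all 10 genes. In a straight-line fit of the 8 fetal pools over the 7 days, 10 of 10 were called rising, against 4.40% of all genes; the median change of the 10 was 3.80 log2 units and that of all genes 0.04. The steepest measured slope was that of F11, 6.37 ± 0.77 log2 units over the 7 days, or 82.9-fold, from early values near the array median. Fgb gained 4.63 ± 0.83, Serpinc1 4.05 ± 0.51, Proc 3.92 ± 0.39, F10 3.91 ± 0.58 and F9 3.69 ± 0.50. F2 gained 3.65 ± 0.49, F5 3.51 ± 0.40 and F12 2.81 ± 0.56. F7 gained the least, 1.31 ± 0.15 log2 units or 2.48-fold, with an adjusted p of 0.00143. The macrophage markers rose too, 8 of 8, and the hepatocyte markers in 6 of 7. As deposited, 12.0% of all genes were called falling over these days, and with the arrays set to equal levels of 14 housekeeping genes 24.2% were called rising and 3.26% falling, because that scaling moved every gene by 0.73 log2 units. All 10 clotting genes rose under both.

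The order in which the genes rose was also read without a threshold, from the day on which a gene crossed the middle of its own fetal range. This order depends on the probe set for F5 and F10. With the sets used, F7, F5 and Serpinc1 came first, at day 15.19, 15.22 and 15.23, and their ranges over the repeats overlapped. F11 followed at day 15.33 (15.29 to 15.38), which overlapped the range of F7 (15.04 to 15.33), and F2 at day 15.43 (15.37 to 15.49), which just overlapped that of F11. Proc crossed at day 15.76 (15.60 to 15.92) and F10 at day 16.03 (15.92 to 16.12), and the ranges of F10 and Fgb (day 16.21, 16.04 to 16.34) overlapped. F9 at day 16.60 (16.51 to 16.70) and F12 at day 17.07 (16.99 to 17.07) were apart from all others. The second set of F5 crossed at day 17.02, next to F12 at the end of the order, and the other sets of F10 at day 14.79 and 16.70. The first place of F7 rests on a small rise, since its fetal range was 1.37 log2 units against 3.15 to 5.65 for the other 9. For that gene, the last to be called against E11.5 as deposited, the order by midpoint and the order by call disagree. The single E18.5 array enters both repeats of each gene.

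**Figure D3:**
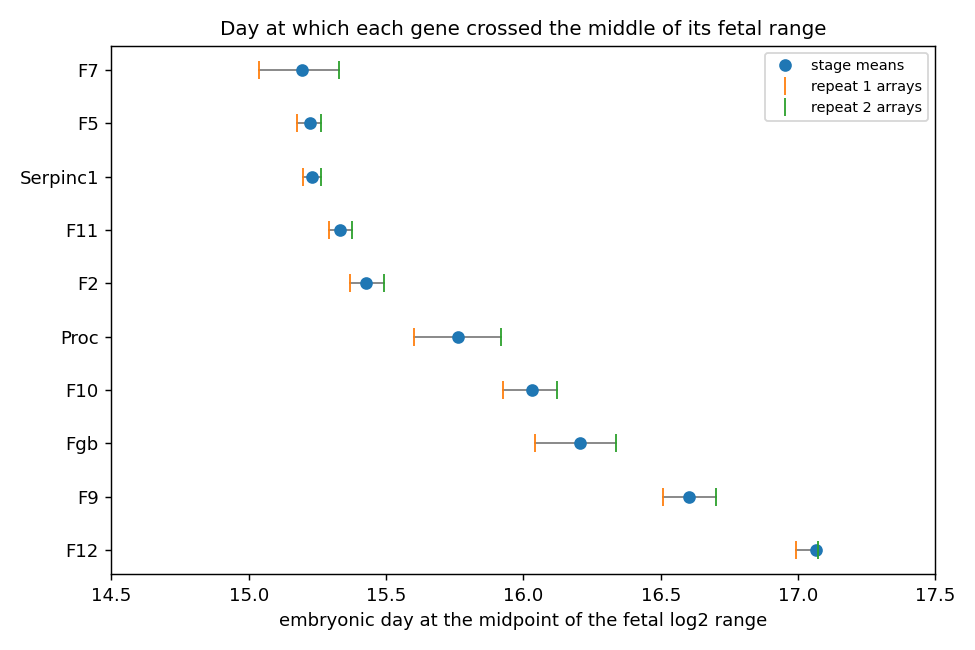
Embryonic day (horizontal axis) on which each of the 10 genes (vertical axis) crossed the middle of its fetal log2 range; the dot is from stage means and the ticks from repeat 1 or repeat 2 arrays alone. The 4 genes F7, F5, Serpinc1 and F11 lie between day 15.19 and 15.33, and F12 is last at day 17.07; a second probe set of F5, not drawn, crossed at day 17.02.

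Averaged over the pools, all 10 genes were higher after birth than before it, and 9 of them were called. In the comparison of the 8 fetal with the 6 postnatal pools, 9 of 10 were called lower in fetal liver, against 5.01% of all genes; the median difference of the 10 was -2.48 log2 units and that of all genes -0.01. The largest measured difference was that of F9, at 6.34 ± 1.38 (SD, n = 8 pools) before and 10.16 ± 0.80 (SD, n = 6 pools) after birth. That is a difference of -3.82 ± 0.60 (SE), or 14.2-fold lower in the fetus (adjusted p = 0.00108), or more if the 4 early pools below the array median were not above background. The pools before birth differ in age, as do those after it, so the SD, SE and adjusted p here hold the change with age. They do not measure a spread between pools of the same age. F11 was not called: its difference was -2.30 ± 0.95, with an adjusted p of 0.103, and without E18.5 it was -2.77 and passed. F7 and F9 were the only genes of the 10 with every fetal pool below every postnatal pool, a pattern that 2.52% of all genes had. In the other 8 the E18.5 pool lay above the lowest postnatal pool.

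In the contact route, F12 was slow and F11 steep. F12, which starts this route on negatively charged surfaces, read 7.64, 7.38, 7.46 and 7.37 from E11.5 to E14.5 and 8.23, 8.44, 9.34 and 10.52 from E15.5 to E18.5. Its repeats differed little, with a pooled SD of 0.165, the smallest of the 10 genes. The largest of its steps, 1.18 ± 0.19 from E17.5 to E18.5 (adjusted p = 0.000578), ended at the E18.5 pool and was 0.80 and not called after quantile normalisation. F12 was 10.22 on Day0, 10.70 on Day3, 11.25 on Day7, 11.11 on Day14, 11.16 on Day21 and 10.51 in the adult. The adult value was 0.66 ± 0.15 below Day21 (adjusted p = 0.017), short of 1 log2 unit.

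F11, which passes the signal from F12 to F9, started at 4.75, 4.79, 5.51 and 4.95 from E11.5 to E14.5, values near or below the array medians. It then read 8.10, 8.59, 9.70 and 10.39 from E15.5 to E18.5, so that its fetal range of 5.65 log2 units was the widest of the 10. F11 was the 1 gene of 10 called in the step from E16.5 to E17.5, at 1.11 ± 0.23, against 0.709% of all genes. Leaving out single arrays of these stages gave 0 to 3 genes called in this step, and the call of F11 was lost without the second repeat of E16.5 or either repeat of E17.5. Across birth it fell by 1.21 ± 0.28 (adjusted p = 0.00511), and it was again the 1 gene of 10 called, against 2.25% of all genes called lower. Without the second Day0 repeat the difference was -0.98 and not called. Against E17.5, which has 2 arrays, the change of F11 to Day0 was -0.51 ± 0.23 (adjusted p = 0.181) and was not called. After Day0 it read 9.19, 9.91, 10.59, 9.44, 8.51 and 8.77 from Day0 to the adult, with the highest value on Day7. The drop from Day7 to Day14 was -1.15 ± 0.32 (adjusted p = 0.0271), the 1 call in 10 against 4.56% of all genes lower. It rests on 1 array a stage and was not called after quantile normalisation (-0.50) or at equal housekeeping levels (-0.86). F11 was the only one of the 10 with a lower value in the adult than at E17.5.

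F9, the factor missing in haemophilia B, was at 5.17, 5.04, 5.46 and 5.28 from E11.5 to E14.5, and was higher at each stage from then on, with 6.35, 6.84, 7.73 and 8.83 from E15.5 to E18.5. After birth it went on from 8.99 on Day0 through 9.29, 10.57, 10.71 and 10.81 to 10.60 in the adult. The repeats of the adult pool differed most, 10.16 and 11.04. By E18.5 F9 had made 64.9% of its rise from E11.5 to its highest stage. It was called in the step from E17.5 to E18.5 (1.10 ± 0.28) together with F12 and Fgb (1.25 ± 0.25), 3 of 10 against 2.32% of all genes. The call of F9 was lost at equal housekeeping levels (0.96) and without the second repeat of E17.5 (0.99), and that of Fgb after quantile normalisation (0.77). It was called again from Day3 to Day7 (1.27 ± 0.28, adjusted p = 0.00379), the 1 gene of 10 in that step against 3.32% of all genes. Both stages at the ends of these steps, E18.5 and Day7, have 1 array, and after quantile normalisation the second step was 0.81 and not called.

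Among the genes of the tissue factor route and the common route, F7 was the late one. F7, whose active form with tissue factor starts clotting after injury, read 6.30, 6.07, 6.43 and 6.47 from E11.5 to E14.5 and 6.88, 6.94, 7.23 and 7.44 from E15.5 to E18.5. On Day0 it was still at 7.60, with repeats of 7.67 and 7.53, and on Day3 at 9.04, with repeats of 9.26 and 8.82. It then stayed between 9.29 and 9.86 in the 4 later pools. The step from Day0 to Day3, also chosen after the values were seen, was 1.44 ± 0.18 (adjusted p = 6.37e-05). F7 had made 32.1% of its rise to its highest stage by E18.5, against 64.9% to 100% for the other 9. Its call against E11.5 at E18.5 (1.14 ± 0.22) was lost without the first E11.5 repeat (0.95).

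F10, where both routes meet, was at 7.79, 7.38, 7.59 and 7.58 from E11.5 to E14.5 and at 9.10, 9.54, 10.39 and 11.29 from E15.5 to E18.5. After birth it read 10.67, 11.14, 12.03, 11.59, 11.30 and 10.87, highest on Day7. Although F10 lies next to F7, its step from Day0 to Day3 was 0.47 ± 0.17 (adjusted p = 0.114) where that of F7 was 1.44; the difference between the 2 genes was not tested. Its other probe sets moved less: one read 5.22 at E14.5, 5.66 at E15.5 and 7.23 at E18.5, and another, which can match several transcripts, read 6.88, 7.33 and 7.41. With the mean of all 3 sets the step from E14.5 to E15.5 was 0.81 and was not called, so the size of the rise of F10 depends on the probe set.

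F5, the helper of F10, was the first to be called. It was at 6.29 at E11.5, with repeats of 6.34 and 6.24, and at 7.23, 7.39 and 7.15 at E12.5 to E14.5, where every repeat was at 7.01 or above. At E13.5 it was 1.09 ± 0.20 above E11.5 (adjusted p = 0.000597), a call lost without the first E13.5 repeat (0.97) or with the mean of its 2 probe sets (0.94). F5 then read 8.64, 8.37, 9.36 and 10.16 from E15.5 to E18.5, and 9.47, 10.75, 11.30, 10.57, 11.19 and 10.96 after birth. It was called with F7 from Day0 to Day3 (1.28 ± 0.20), 2 of 10 against 1.81% of all genes. Its second probe set rose later, with 6.88 at E14.5, 7.58 at E15.5 and 9.54 at E18.5, and reached 11.24 on Day7, close to the 11.30 of the first.

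Prothrombin and fibrinogen, the substrates at the end of the cascade, were near their postnatal levels at E18.5, as some of the other genes were. F2 read 9.27, 9.07, 9.40 and 9.21 from E11.5 to E14.5 and 10.90, 11.06, 11.99 and 12.48 from E15.5 to E18.5. After birth it kept to a narrow band of 12.08 on Day0, 12.38, 12.76, 12.73 and 12.80 on Day21, and 12.22 in the adult. By E18.5, which has 1 array, it had made 91.0% of its rise to the highest stage. The share was 96.7% for F11, 90.1% for Serpinc1 and 87.8% for Proc.

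Fgb encodes the beta chain of fibrinogen. It read 9.40, 8.83, 8.78 and 8.72 from E11.5 to E14.5, and 10.68, 11.30, 12.27 and 13.52 from E15.5 to E18.5. It was the 1 gene of the 10 with its highest value before birth, and after it the pools were at 13.37, 12.74, 13.31, 13.29, 12.81 and 12.44. That highest value is from the single E18.5 array, and the change from there to Day0 was -0.15 and not called. The change was 0.092 after quantile normalisation and 0.074 without the second Day0 repeat. On Day3 Fgb was 0.63 ± 0.20 below Day0 (adjusted p = 0.0678), while the other 9 were higher on Day3 than on Day0. The adult was 0.93 ± 0.20 below Day0 (adjusted p = 0.00213), short of 1 log2 unit; without the second repeat of Day0 or of the adult the difference was -1.15 and -1.21 and was called. The fetal to postnatal difference of Fgb, -2.55 ± 0.71 (adjusted p = 0.0221), was -2.15 and not called (adjusted p = 0.0862) when Day0 was counted with the fetal pools.

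Both anticoagulants rose at E15.5 like most of the factors that they restrain. Serpinc1 read 9.55, 9.31, 9.69 and 9.69 from E11.5 to E14.5 and 11.73, 11.84, 12.43 and 13.05 from E15.5 to E18.5, so that the step from E14.5 to E15.5 was 54.3% of its fetal range. After birth it was at 12.70, 13.12, 13.44, 13.42, 13.27 and 13.12, the tightest postnatal spread of the 10 (SD 0.27, n = 6 pools). Proc, which depends on vitamin K as F2, F7, F9 and F10 do, read 7.42, 7.52, 8.04 and 7.84 and then 9.20, 9.60, 10.46 and 11.18 up to E18.5. Its postnatal values were 10.55, 11.25, 11.71, 11.45, 11.46 and 11.04. The Day0 repeats of Proc, 10.90 and 10.20, were among the widest apart, and without the first of them its step to Day3 was 1.05 and called. F2 and Serpinc1, thrombin's precursor and its inhibitor, had the most similar courses of all 45 pairs (Pearson r = 0.995 over the 14 stage means), and F7 and F11 the least similar (r = 0.694). The median of the 45 was 0.953, and all pairs share the same pools and arrays.

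Birth itself brought no general rise from E18.5, and the direction of the step depended on the pool set before birth. From E18.5 to Day0 0 of 10 genes were called higher, with 0 higher and 4 lower at an unadjusted p under 0.05, against 3.63% of all genes called higher; the values were lower in 8 of 10, with a median of -0.38. F10 was 0.61 ± 0.21 lower (adjusted p = 0.039) and F5 0.68 ± 0.24 lower (adjusted p = 0.0528), both short of the threshold. The direction of F10 depends on the probe set. Its other sets went from 7.23 to 7.64 and from 7.41 to 8.23, and the mean of all its sets was 0.21 higher on Day0. Against E17.5, which has 2 arrays and no muscle signal, 2 of 10 were called higher on Day0, against 2.61% of all genes. They were F9 (1.26 ± 0.23) and Fgb (1.10 ± 0.20), and 0 were called lower, against 1.26%. With the arrays at equal housekeeping levels neither was called (0.96 and 0.80). As deposited, the median of the 10 against E17.5 was 0.28, and only F11 was lower (-0.51). Between Day0 and the adult 3 of 10 were called higher, against 3.82% of all genes: F7 (1.69 ± 0.18), F9 (1.62 ± 0.23) and F5 (1.49 ± 0.20). None of the 10 was called lower, with 1, Fgb, lower at an unadjusted p under 0.05, against 7.12% of all genes. From Day21 to the adult 0 of 10 were called, with 0 higher and 4 lower at an unadjusted p under 0.05, against 0.610% of all genes higher and 1.20% lower.

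Repeats of a pool moved these genes together. At E15.5, E16.5, E17.5, Day0 and Day3 all 10 were higher on the first repeat, by a median of 0.45 log2 units at both Day0 and Day3, where the median of all genes was 0.07 and 0.03. In the adult all 10 were lower on the first repeat, by a median of 0.59, with the median of all genes at 0.01. The largest single difference was that of F9 in the adult, 0.88. The 10 genes therefore do not give 10 separate readings of a step between pools.

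Of the other genes of coagulation and fibrinolysis, those called over the fetal days or from E14.5 to E15.5 all rose. Of 34 listed, 31 were measured. Over the fetal days 16 were called rising and 0 falling, against 4.40% of all genes rising and 12.0% falling. At an unadjusted p under 0.05, 21 rose and 3 fell. Tfpi (-0.62) and Vkorc1l1 (-0.61) fell with an adjusted p under 0.05, short of 1 log2 unit. From E14.5 to E15.5 10 were called higher and 0 lower, against 1.29% and 1.17% of all genes. At an unadjusted p under 0.05, 17 were higher and 3 lower in that step. The median fetal change of the 31 was 1.05 log2 units, beside 0.04 for all genes. The largest were Pzp (7.36), F13b, the carrier of the fibrin-linking factor (6.28), and Kng1, the kininogen of the contact route (5.79). They were followed by Fgl1 (5.02), Klkb1 (4.57) and Fgg (4.56). In the fetal to postnatal comparison 15 of 31 were lower in the fetus and 0 higher, against 5.01% and 4.50% of all genes, with a list median of -1.20, led by Fgl1 (-5.02) and Hrg (-4.63). Of the genes known from other cells, Vwf, a product of endothelium and megakaryocytes, rose by 1.78 across birth and fell by 3.15 from Day0 to the adult. F13a1, found in megakaryocytes and macrophages, rose by 1.05 over the fetal days and fell by 3.74 from Day0 to the adult. From Day0 to the adult 5 of 7 megakaryocyte and platelet markers were called lower, against 7.12% of all genes, their mean going from 8.29 to 6.12. Endothelial markers were called lower in 2 of 7 (mean 7.27 to 6.29) and macrophage markers in 2 of 8 (8.69 to 8.03). Erythroid markers were called lower in 7 of 7 (10.07 to 6.69), and 0 were called higher in any of these lists. The cells behind the falls of Vwf and F13a1 were not tested.

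Some of these genes are direct neighbours in the GRCm38.p6 annotation, where F7, F10 and Proz follow each other, F11 lies beside Klkb1, and Fgb beside Fga. Proz, the cofactor of an inhibitor of F10, rose by 1.42 from E14.5 to E15.5 and by 1.44 from Day0 to Day3, so it had the early step of F10 and the late step of F7. Klkb1, prekallikrein, rose by 1.94 at the first of these steps. From E18.5, with 1 array, to Day0 it fell by 1.52, where F11 fell by 1.21. The other fibrinogen chains, Fga and Fgg, rose by 1.94 and 2.36 from E14.5 to E15.5, beside 1.96 for Fgb. Differences between neighbouring genes were not tested.

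Of 12 transcription factors of the liver 10 were measured. From E14.5 to E15.5 0 of 10 were called in limma, with 1 higher and 4 lower at an unadjusted p under 0.05, against 1.29% of all genes higher and 1.17% lower; Hnf4a changed by -0.07 and Cebpa by -0.01. Over the fetal days 0 rose, with 3 higher at an unadjusted p under 0.05, and Gata4 (-1.73) and Foxa1 (-1.06) fell, 2 of 10 against 12.0% of all genes. Between fetal and postnatal pools Cebpb (-1.41), Hnf4a (-1.26), Nr5a2 (-1.22) and Foxa3 (-1.08) were lower in the fetus, 4 of 10 against 5.01% of all genes. From E18.5, with 1 array, to Day0 the median change of the 10 was -0.13. Cebpa changed by -2.19 and Onecut1 by -1.62, while Cebpb changed by 0.96 and Nr5a2 by 0.61. From Day0 to Day3 2 of 10 were called higher, Cebpa (1.86) and Foxa3 (1.09), against 1.81% of all genes. In that step 0 were called lower, against 1.10%.

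**Figure D4:**
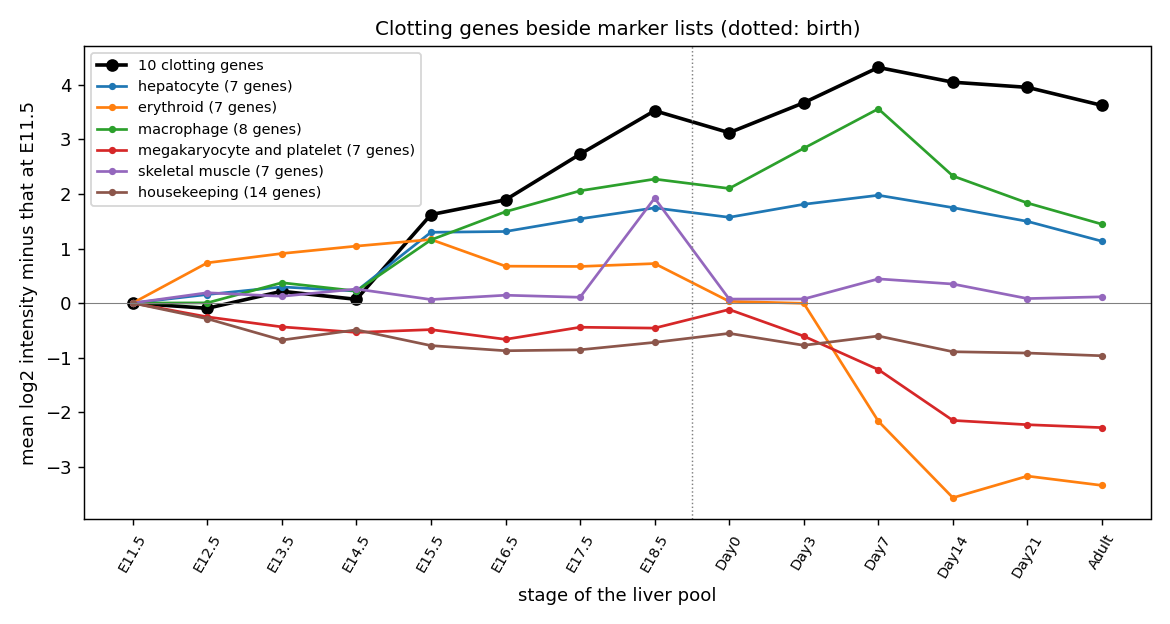
Mean log2 intensity minus that at E11.5 (vertical axis) over the 14 stages (horizontal axis) for the 10 clotting genes and for lists of marker genes. The clotting genes and the hepatocyte markers step up together at E15.5, the macrophage markers rise alongside them to Day7, the erythroid markers fall after Day3, and the muscle markers peak at E18.5.

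Among all genes whose stage means spanned at least 2 log2 units, the 3 most like each clotting gene were found by Pearson r over the 14 stage means. For F2 they were Itih4 (0.998), Apof (0.997) and Plg (0.996), and for F10 they were Apof (0.997), Cfb (0.996) and Plg (0.993). Proc was closest to Itih4 (0.995) and Apoc4 (0.995), and Serpinc1 to Vtn (0.997), Itih4 (0.997) and Apoa1 (0.996). F11 had the weakest matches, Itih3 (0.982), Fgg (0.978) and Ahsg (0.976). F5 was closest to Proz (0.990), and F7 to Agmat (0.993). F9 was closest to Phyh (0.995) and Slc27a5 (0.995), F12 to Pon1 (0.995) and Lcat (0.991), and Fgb to Hp (0.988), the haptoglobin gene. These correlations share pools, arrays and scaling and are given as a description.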

How the data were processed

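Labelled RNA of each pool was hybridised to whole-genome mouse arrays, and the authors deposited values of 45101 probe sets on 25 arrays. The deposited values are linear intensities, as their range shows; RMA is named in the submitters' processing notes, with its version and steps not given in the sources used here. Array means of 140.5 to 210.4 were unequal, so whether arrays were normalized between each other is not settled. Because log2 values had been planned for, log2 of the deposited intensity was taken, with no pseudocount and no filter on low values. Depth has no meaning for arrays, and their number limits the precision.

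Of the probe sets 34958 carried 1 gene symbol in the platform annotation (13 of them array controls, left out), 932 several and 9211 none; 204 had no match in RefSeq's gene list and 0 symbols changed. Each gene was represented by its set with the highest mean over the stages. Repeats were averaged for the fits of pools (8 fetal against 6 postnatal; slope over the fetal days). Steps between stages came from a single fit of all 25 arrays with a mean per stage; stages with 1 array are assumed to vary like the rest. All fits used limma 3.58.1 in R 4.3.3 (data.table package, version 1.17.8), were adjusted over 18193 genes, and were tested on simulated data. Figures used matplotlib 3.10.9 in Python 3.11.15. Every one of the 10 genes is named; other coagulation genes, liver factors, housekeeping genes and markers came from lists drawn up from general knowledge, of which the largest called changes are named. The genes and lists were chosen with earlier results of these data known. Steps other than those against E11.5, across birth, and to the adult were added after the values were seen. Alternatives covered scaling, which probe set stands for a gene, low values, the variance model, the repeat number, the boundary at birth and the omission of arrays or pools.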

Additional observations from a re-analysis of the deposited data

Results flagged for a closer look

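Among 20 groups tested for a stage far from the rest (10 genes in 8 fetal and in 6 postnatal pools), 1 stood out, and chance gives about 1 in 20. It was F7 on Day0, at 7.60 log2 units, while the 5 later pools lay between 9.04 and 9.86. The gap to the nearest pool was 0.64 of the whole postnatal range, against a critical value of 0.625.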

How the results depend on the processing

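Of the counts of called genes under alternatives 1065 stayed within 1.5 times the reported count and 23 did not; of the values of single genes 2894 kept direction and call, 24 lost a call, 7 gained one and 11 changed sign, and the causes were not tested. Quantile normalisation gave 1 gene higher from E17.5 to E18.5, 0 higher from Day3 to Day7, 0 lower from Day7 to Day14 and 1 higher from E17.5 to Day0, and it turned the step of F7 (-0.065) and Fgb (0.092) across birth. At equal housekeeping levels 1, 3 and 1 genes were called above E11.5 at E12.5, E13.5 and E14.5. The count was 10 at each stage from E15.5 to E18.5. At these levels 0 were called lower from Day7 to Day14 and 0 higher from E17.5 to Day0. The step across birth turned for F7 (-0.0043) and F9 (-0.0069). That scaling also changed how many of all calls against E11.5 were higher: over the fetal stages the share was 15.0% to 62.2% as deposited, 85.6% to 96.0% at equal housekeeping levels and 46.0% to 82.5% after quantile normalisation. The mean of all probe sets gave 0 at E13.5 and turned F10 across birth (0.21) and from Day0 to the adult (-0.22). With E17.5 as the stage before birth 2 genes were called higher and 0 called lower on Day0.

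Leaving out 1 array at a time gave 0 to 1 genes called at E12.5 (1 without the second E12.5 repeat) and at E13.5, 0 to 3 from E16.5 to E17.5, 0 to 1 lower across birth, 1 to 3 from Day3 to Day7 (3 without the first Day3 repeat), 1 to 3 from E17.5 to Day0, and 0 to 1 lower from Day0 to the adult (Fgb). F9 went from -0.044 to 0.36 and Fgb from -0.38 to 0.074 across birth, and from Day0 to the adult F2 went from -0.17 to 0.46 and F10 from -0.011 to 0.41, none of them called. Leaving out 1 pool at a time kept 9 to 10 genes lower in the fetus and 10 rising over the fetal days. With the repeat number as a replicate block every count was as reported, for example 9 lower in the fetus, 10 rising and 8 higher at E15.5 than at E14.5. The numbers do not pair the stages: the repeat differences of 55 pairs of stages correlated at -0.573 to 0.730 (median 0.398), with 38 over 0.1.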
